A study of Mus musculus with 2 samples.

Results

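Autophagy is the process by which a cell wraps part of its own contents in a double membrane, the autophagosome, and delivers it to the lysosome for breakdown. A kinase complex starts the process, a lipid kinase complex marks the growing membrane, and a conjugation system attaches small ubiquitin-like proteins of the ATG8 family to it. Receptor proteins then bring cargo to those proteins. In antigen-presenting cells the machinery is also known for carrying cytosolic proteins to compartments where peptides are loaded on MHC class II.

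The 37 genes here encode that core machinery and were chosen by name, not by their values, though with earlier results of these data known. Of these, 36 had a probe set assigned to a single gene symbol, out of 19937 such genes on the array, and Optn had none and was not analysed here. They fall into 6 steps of the pathway, with 4 genes of the initiation complex, 6 of the lipid kinase complex, 6 of membrane supply and lipid transfer, 11 of conjugation, 5 of the ATG8 family and 4 measured receptors.

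Langerhans cells, resident antigen-presenting cells of the epidermis, came from Il34LacZ/LacZ mice, which carry a LacZ cassette in both copies of Il34, and from Il34+/LacZ mice, which carry it in 1 copy. IL-34 is a cytokine that signals through the CSF1 receptor. All mice were 8 to 12 weeks old, received ultraviolet light for 30 min and were sampled 21 days later, when cells positive for Langerin and Epcam were sorted, so neither an unexposed group nor mice with 2 intact copies of Il34 enter the comparison. Each genotype was measured on 1 array (n = 1), the labels do not say how many animals contributed to each, and no p-value or error between genotypes can be given. The cassette is carried by the whole animal, so other cells of the skin lack the cytokine as well.

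Values are intensities in arbitrary units, and each difference subtracts Il34+/LacZ from Il34LacZ/LacZ on the scale log2(intensity + 16), which understates the change of dim genes. The floor was the median of all probe sets on both arrays, an intensity of 48.7. The error that can be had is the disagreement between probe sets of 1 gene, an SD of 0.63 on the log2 scale, or 1.55-fold, from 614 genes. This SD was taken from differences before the trend described below was subtracted. With only probe sets numbered among genes of their own chromosome it was 0.68, from 300 genes. It covers probes and isoforms, not animals, sorts or amplification. Over the 12843 genes at or above the floor on at least 1 array the median difference was -0.16, and it varied with level. The typical difference was 0.11 at a mean level of 74.5, -0.42 at 165.0 and -0.61 at 346.0. Each difference is therefore also given after this trend was subtracted, here called trend adjustment, so that a typical gene of any level stands at about 0. RNA of bulk sorted cells does not separate fewer cells of a type from less RNA per cell.

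The sorted cells carried the defining genes of their label on both arrays. Cd207, which encodes Langerin, read 1852.0 in Il34LacZ/LacZ and 3153.0 in Il34+/LacZ, and Epcam read 707.7 in Il34LacZ/LacZ and 632.9 in Il34+/LacZ. Of 10 keratinocyte markers, 8 were past 1.5-fold on the lower side in Il34LacZ/LacZ, beside 28.2% of all genes at or above the floor. On the higher side 0 were, beside 9.36%. The 10 markers summed to 706.2 in Il34LacZ/LacZ against 4753.8 in Il34+/LacZ. Among 8 macrophage markers 3 were past 1.5-fold on the higher side, beside 9.36% of all genes, and 1 on the lower side, beside 28.2%. The 8 markers summed to 2906.6 in Il34LacZ/LacZ and 1458.9 in Il34+/LacZ. Neutrophil and monocyte markers summed to 1401.1 in Il34LacZ/LacZ and 336.2 in Il34+/LacZ over 5 genes, carried by S100a8 and S100a9. Ly6g read 11.5 in Il34LacZ/LacZ and 8.51 in Il34+/LacZ and was below the floor on both arrays. Csf3r read 63.5 in Il34LacZ/LacZ and 41.8 in Il34+/LacZ, below the floor in the latter. Ccr2 went the other way, with 75.4 in Il34LacZ/LacZ and 110.8 in Il34+/LacZ, a difference of -0.47. T cell markers summed to 5504.6 in Il34LacZ/LacZ and 6149.8 in Il34+/LacZ over 4 genes and were far above the floor on both arrays. None of the 4 was 1.5-fold apart as deposited, beside 28.2% of all genes lower and 9.36% higher. After trend adjustment 1 of them, Cd3g at 0.65, was past 1.5-fold on the higher side, beside 13.9% of all genes. Their median was then 0.36. Fibroblast markers summed to 385.0 in Il34LacZ/LacZ against 239.8 in Il34+/LacZ over 5 genes, and endothelial markers to 182.8 in Il34LacZ/LacZ against 77.6 in Il34+/LacZ over 3 genes. The part of these other cells in the values below was not tested. Il34 itself read 64.4 in Il34LacZ/LacZ and 39.4 in Il34+/LacZ, below the floor in Il34+/LacZ, and this reading does not check the labels because the place of its probes with respect to the cassette is unknown.

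Most autophagy genes read lower in Il34LacZ/LacZ, also relative to other genes of their level. The median difference over the 36 measured genes was -0.63, against 0.09 over all 19937 genes. Of the 36, 32 were negative, beside 41.9% of all genes. The trend-adjusted median was -0.58, against 0.01 over all genes, and 28 of 36 were negative, beside 48.9%. However, 7094 of the 19937 genes were below the floor on both arrays. Over the other 12843 the median was -0.16 and 56.3% were negative, or 0.03 and 48.0% after trend adjustment. 35 of the 36 genes reached the floor on at least 1 array, and only Atg10 did not. Of these 35, 18 read at least 1.5-fold lower as deposited, beside 28.2% of all genes, and 1 read at least 1.5-fold higher, beside 9.36% of all genes. By trend-adjusted values 17 of the 35 were lower by this fold, beside 18.6% of all genes, and 2 were higher, beside 13.9%. A total of 12 autophagy genes were lower on both scales, among them Atg4a, which reached the floor in Il34+/LacZ alone. The share of all genes lower on both scales was not counted, so this number has no background beside it. For counts and folds as deposited, a reading below the floor was set to the floor, and such a fold is written as at least that size. Trend-adjusted values use the readings as they stand.

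A total of 4 genes, Rb1cc1, Atg4a, Atg4c and Atg5, reached the floor in Il34+/LacZ alone, so they had to read lower in Il34LacZ/LacZ. None reached it in Il34LacZ/LacZ alone. Among the 31 genes at or above the floor on both arrays, 17 read at least 1.5-fold lower and 1 higher as deposited, which is 54.8% and 3.23%, against 33.6% and 9.09% of the 9803 genes treated the same way. By trend-adjusted values 13 of the 31 were lower and 2 higher, which is 41.9% and 6.45%, against 17.0% and 14.7% of those 9803 genes. Among genes at or above the floor on both arrays the share of lower readings was thus larger for autophagy genes than for all genes on both scales, with no test of that difference possible from these arrays.

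The 31 genes at or above the floor on both arrays were also split by mean level. Between 74.5 and 165.0 intensity units 5 of 11 were at least 1.5-fold lower after trend adjustment, against 19.9% of all genes of that band treated the same way. Between 165.0 and 346.0 units 5 of 12 were lower, against 18.1%. Above that level 2 of 5 were lower, against 13.4%. Under 74.5 units 1 of 3 autophagy genes was lower, against 10.2%, which is too few genes to compare. The 4 genes that reached the floor in Il34+/LacZ alone lie in that lowest band and are left out of these counts. The plot of difference against level shows most autophagy genes under the line of the trend.

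**Figure D1:**
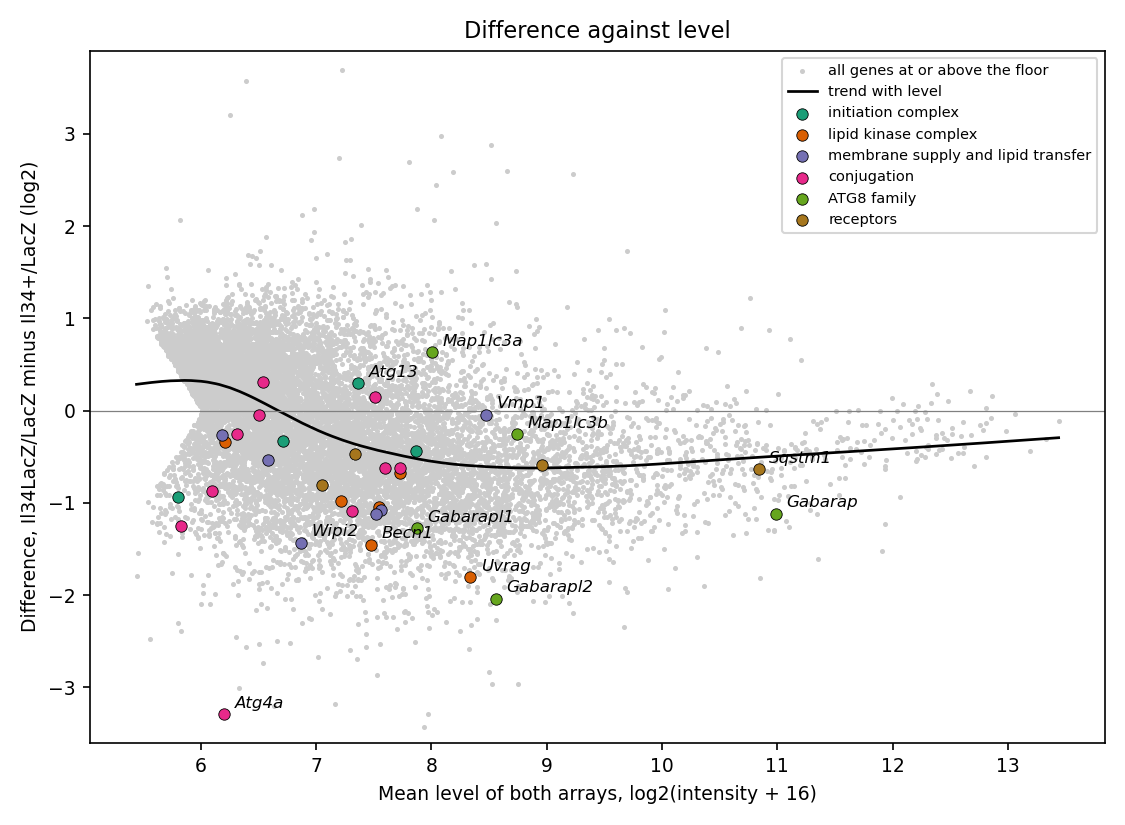
Difference between Il34LacZ/LacZ and Il34+/LacZ (log2, vertical) against the mean level of both arrays, log2(intensity + 16) (horizontal), for 12843 genes at or above the floor (grey) and 35 autophagy genes coloured by step; the black line is the trend with level. Atg4a, Gabarapl2 and Uvrag have the 3 lowest differences, and Map1lc3a lies farthest above it among the autophagy genes.

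The intensities of all 36 genes on both arrays are shown in the plot of members by step. Intensities of different probe sets are not comparable as transcript amounts, so only the 2 points of 1 gene are to be compared.

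**Figure D2:**
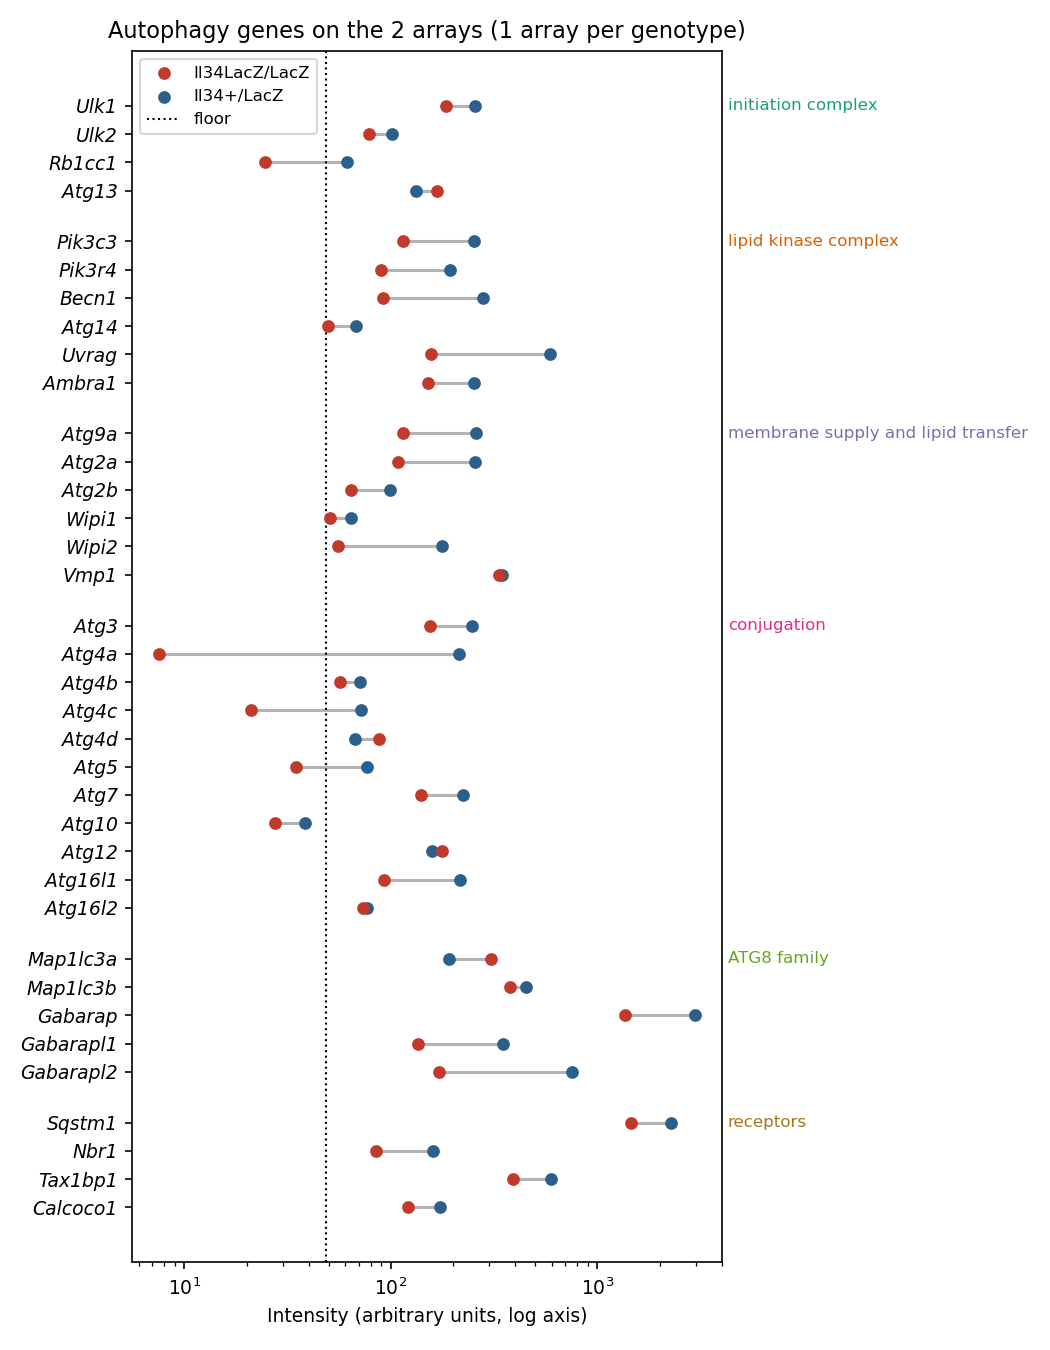
Intensity of each of the 36 measured autophagy genes (log axis, arbitrary units) in Il34LacZ/LacZ (red) and Il34+/LacZ (blue), 1 array each, grouped by step; the dotted line is the floor at 48.7. The red point lies left of the blue point for 32 genes and right of it for Atg13, Atg4d, Atg12 and Map1lc3a.

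Among genes reaching the floor on at least 1 array, the initiation complex had the as-deposited median difference closest to 0 of the 6 steps. Its kinases and scaffolds receive the signal from nutrient sensing and switch the pathway on. Ulk1, the main kinase of the complex, read 184.4 in Il34LacZ/LacZ and 255.1 in Il34+/LacZ, a difference of -0.44 (0.08 after trend adjustment). Its relative Ulk2 read 77.9 in Il34LacZ/LacZ and 101.7 in Il34+/LacZ, a difference of -0.33, or -0.30 after trend adjustment. Both kinases were thus within the probe set SD on either scale. Rb1cc1, the scaffold FIP200, read 24.4 in Il34LacZ/LacZ, below the floor, against 61.5 in Il34+/LacZ, or at least 1.20-fold lower. Atg13, the adaptor between kinase and scaffold, ran the other way at 166.8 in Il34LacZ/LacZ and 132.5 in Il34+/LacZ, a difference of 0.30 (0.67 after trend adjustment). The median of the 4 genes was -0.38, and -0.11 after trend adjustment. Without Rb1cc1, over the 3 genes at or above the floor on both arrays, the medians were -0.33 and 0.08. Over genes of that kind the conjugation step was closer to 0 as deposited, at -0.26.

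All 6 genes of the lipid kinase complex read lower in Il34LacZ/LacZ, beside 56.3% of all genes at or above the floor. As deposited 5 of them were lower by at least 1.5-fold, beside 28.2% of all genes. This complex makes the phosphoinositide that marks autophagosome and endosome membranes. Its catalytic subunit Pik3c3 (VPS34) read 114.3 in Il34LacZ/LacZ and 252.2 in Il34+/LacZ, or 2.06-fold lower, and the regulatory subunit Pik3r4 (VPS15) read 89.8 in Il34LacZ/LacZ and 192.3 in Il34+/LacZ, or 1.97-fold lower. Becn1, Beclin 1, the subunit through which the complex is regulated, read 91.9 in Il34LacZ/LacZ and 279.5 in Il34+/LacZ, or 2.74-fold lower. Those 3 shared subunits differed by -0.61, -0.66 and -1.04 after trend adjustment. Pik3c3 thus came within the probe set SD of 0.63, Pik3r4 was just past it and Becn1 was further past it. Against the SD of 0.68 from probe sets among genes of their own chromosome, Pik3r4 was within and Becn1 was not.

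The exclusive subunits of the lipid kinase complex differed in size. Uvrag, the subunit of the endosomal form, read 156.9 in Il34LacZ/LacZ and 589.3 in Il34+/LacZ. This is 3.50-fold lower, or -1.21 after trend adjustment, and 1.25% of all genes differed by as much or more in this direction as deposited. Atg14, the subunit of the form that acts at autophagosomes, read 49.8 in Il34LacZ/LacZ and 67.5 in Il34+/LacZ, both close to the floor, a difference of -0.34 (-0.61 after trend adjustment, and -0.56 with the trend smoothed over a fraction of 0.5). Ambra1, a regulator that binds Beclin 1, read 151.6 in Il34LacZ/LacZ and 252.7 in Il34+/LacZ, or 1.60-fold lower, and -0.20 after trend adjustment. The median of the 6 genes was -1.01, and -0.64 after trend adjustment.

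Of the 6 genes of membrane supply and lipid transfer 3 were past 1.5-fold on the lower side as deposited, beside 28.2% of all genes, and 4 after trend adjustment, beside 18.6%. Atg9a, a lipid scramblase of the vesicles that seed the membrane, read 114.0 in Il34LacZ/LacZ and 258.1 in Il34+/LacZ, or 2.11-fold lower. Atg2a, a lipid transfer protein that bridges the endoplasmic reticulum and the growing membrane, read 108.0 in Il34LacZ/LacZ and 254.1 in Il34+/LacZ, or 2.18-fold lower, and its relative Atg2b read 63.8 in Il34LacZ/LacZ and 99.5 in Il34+/LacZ, or 1.45-fold lower. After trend adjustment these 3 differed by -0.64, -0.70 and -0.59, and Atg2b stood at -0.58, just short of 1.5-fold, with a smoothing fraction of 0.5.

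Wipi2, which binds the phosphoinositide and recruits the conjugation machinery, read 55.2 in Il34LacZ/LacZ and 175.9 in Il34+/LacZ, or 2.69-fold lower and -1.30 after trend adjustment. Wipi1, of the same family, read 50.4 in Il34LacZ/LacZ and 63.8 in Il34+/LacZ, a difference of -0.26 close to the floor (-0.54 after trend adjustment). Vmp1, a scramblase of the endoplasmic reticulum, read 333.9 in Il34LacZ/LacZ and 344.4 in Il34+/LacZ, a difference of -0.04 (0.56 after trend adjustment). The step as a whole had a median of -0.81, and -0.62 after trend adjustment.

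**Figure D3:**
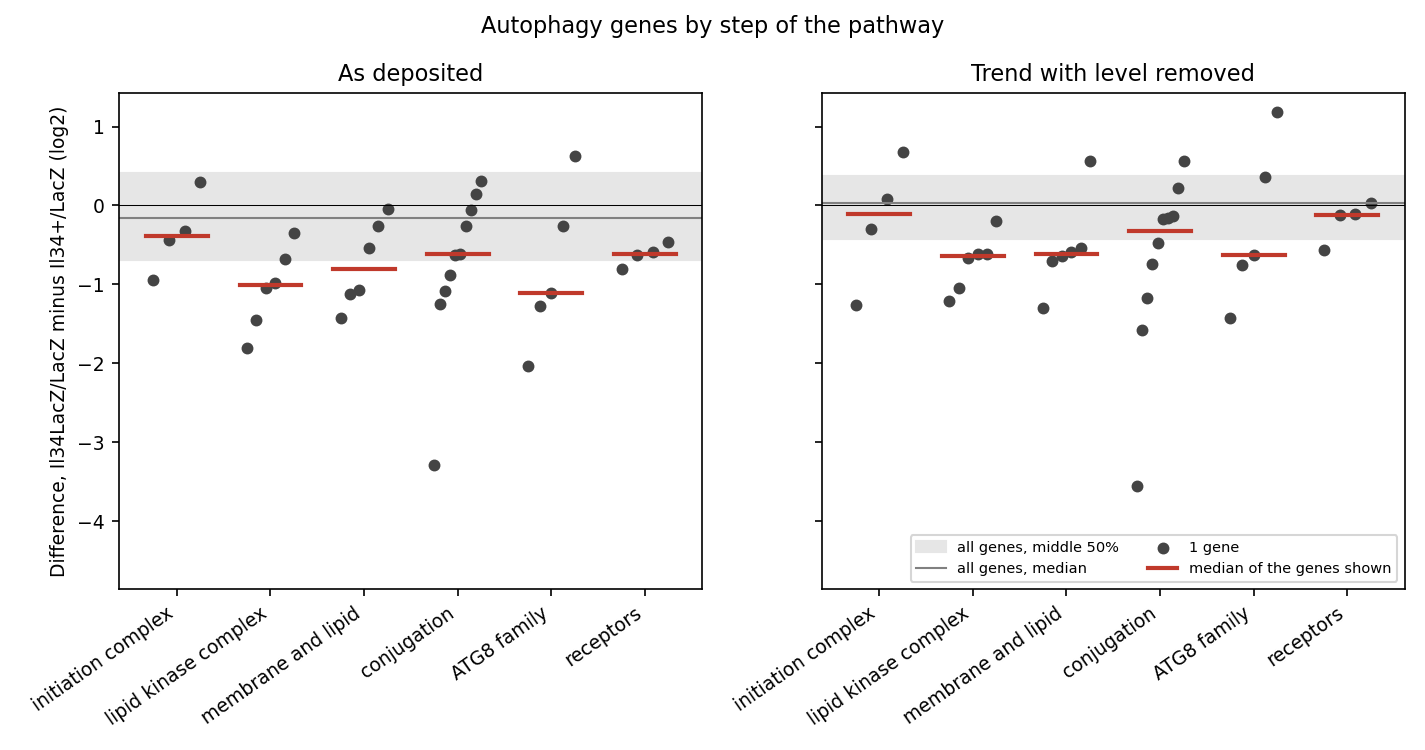
Difference between Il34LacZ/LacZ and Il34+/LacZ (log2) for each autophagy gene at or above the floor, by step, as deposited (left) and with the trend with level removed (right); red bars are medians and the grey band is the middle 50% of all genes. Medians of the lipid kinase, membrane and ATG8 steps lie below the grey band on both scales, and those of the other 3 steps lie inside it.

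Promoter sequences are shown for 3 conjugation enzymes, because the letters CACGTG, the E-box that the lysosomal factor TFEB and related factors can bind, were found upstream of Atg3, Atg5 and Atg7 and of no other matched member. Uvrag is shown beside them as the gene with a large difference and no such letters. Sequences are the 250 bases before the gene's start from RefSeq (build GRCm38.p6), 5′ to 3′ on the gene's strand, with CACGTG in capitals. The window of Atg3 is chr16:45158579-45158828 (plus strand), that of Atg5 chr10:44268089-44268338 (plus strand), that of Atg7 chr6:114670846-114671095 (plus strand) and that of Uvrag chr7:99141145-99141394 (minus strand).
Atg3: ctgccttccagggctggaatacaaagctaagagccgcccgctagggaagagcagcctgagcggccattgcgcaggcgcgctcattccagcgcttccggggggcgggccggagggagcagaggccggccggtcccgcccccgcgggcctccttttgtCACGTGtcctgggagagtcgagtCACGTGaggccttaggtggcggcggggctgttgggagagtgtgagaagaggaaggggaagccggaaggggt
Atg5: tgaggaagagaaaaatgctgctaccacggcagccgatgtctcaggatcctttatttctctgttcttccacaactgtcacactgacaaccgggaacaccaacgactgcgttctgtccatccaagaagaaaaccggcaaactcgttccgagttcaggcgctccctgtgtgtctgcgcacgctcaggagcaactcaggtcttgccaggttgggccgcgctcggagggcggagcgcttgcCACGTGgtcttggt
Atg7: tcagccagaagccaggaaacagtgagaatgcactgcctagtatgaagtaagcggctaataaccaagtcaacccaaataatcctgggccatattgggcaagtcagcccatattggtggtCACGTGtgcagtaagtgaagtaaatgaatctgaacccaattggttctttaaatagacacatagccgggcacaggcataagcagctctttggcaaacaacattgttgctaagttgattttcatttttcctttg
Uvrag: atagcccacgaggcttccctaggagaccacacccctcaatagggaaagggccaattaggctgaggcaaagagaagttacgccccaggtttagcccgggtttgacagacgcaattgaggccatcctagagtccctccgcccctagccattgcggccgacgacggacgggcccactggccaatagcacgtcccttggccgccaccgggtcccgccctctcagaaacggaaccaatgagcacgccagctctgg
The first letter of the motif lies 94 and 71 bases before the start in Atg3, 14 bases in Atg5 and 132 bases in Atg7. Windows were held for 30 of the 36 members, so 3 of 30 carried CACGTG, against 9.66% of the 10203 genes at or above the floor with a window and 6.02% of all 32851 windows. The motif is its own reverse complement, so both strands are covered. The letters TGTTTAC, a core that FOXO factors can bind, were searched on both strands, and no member's window held them, against 2.78% of those 10203 genes. The members' share of CACGTG is near the background.

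Of the 3 enzymes with that motif, Atg7 and Atg3 read moderately lower. Atg7, the E1-like enzyme that activates both ubiquitin-like proteins, read 139.7 in Il34LacZ/LacZ and 223.9 in Il34+/LacZ, or 1.54-fold lower and -0.18 after trend adjustment. Atg3, the E2-like enzyme for ATG8 proteins, read 155.3 in Il34LacZ/LacZ and 246.9 in Il34+/LacZ, or 1.53-fold lower and -0.13 after trend adjustment. Both differences were close to those of a typical gene of their level. Atg5, which is joined to ATG12, read 34.6 in Il34LacZ/LacZ, below the floor, and 76.7 in Il34+/LacZ, or at least 1.43-fold lower.

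The other conjugation genes were mixed. Atg16l1, which places the ATG12 and ATG5 conjugate on the membrane, read 92.6 in Il34LacZ/LacZ and 215.0 in Il34+/LacZ, or 2.13-fold lower and -0.74 after trend adjustment. Its relative Atg16l2 read 73.0 in Il34LacZ/LacZ and 76.3 in Il34+/LacZ, a difference of -0.05. Atg12, the ubiquitin-like partner of ATG5, read 175.8 in Il34LacZ/LacZ and 157.2 in Il34+/LacZ, a difference of 0.15 (0.57 after trend adjustment), within the probe set SD. Atg10, the E2-like enzyme for ATG12, read 27.5 in Il34LacZ/LacZ and 38.4 in Il34+/LacZ, below the floor on both arrays. The step had a median of -0.62 over the 10 genes at or above the floor, and -0.33 after trend adjustment. Of these, Atg4a, Atg4c and Atg5 reached the floor in Il34+/LacZ alone, so they had to read lower. Over the 7 genes at or above the floor on both arrays the medians were -0.26 and -0.16.

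The ATG4 proteases, which trim ATG8 proteins before conjugation and release them from membranes, ranged widely. Atg4b read 57.0 in Il34LacZ/LacZ and 71.2 in Il34+/LacZ, a difference of -0.26. Atg4c read 21.0 in Il34LacZ/LacZ, below the floor, and 71.8 in Il34+/LacZ, or at least 1.36-fold lower. Atg4d ran the other way, with 87.6 in Il34LacZ/LacZ and 67.3 in Il34+/LacZ, a difference of 0.32 (0.23 after trend adjustment). Atg4a read 7.53 in Il34LacZ/LacZ and 214.3 in Il34+/LacZ on the probe set with the higher mean, or at least 3.56-fold lower. A second Atg4a probe set read 72.9 in Il34LacZ/LacZ and 125.7 in Il34+/LacZ, or 1.59-fold lower, so the size of this difference depends on the probe set.

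Within the ATG8 family the 3 GABARAP genes read lower in Il34LacZ/LacZ, and the LC3 genes depended on the gene and the probe set. These proteins coat the autophagosome, and LC3 is the usual marker of it. Gabarap read 1363.6 in Il34LacZ/LacZ and 2972.7 in Il34+/LacZ, or 2.17-fold lower and -0.62 after trend adjustment. Gabarapl1 read 134.8 in Il34LacZ/LacZ and 348.1 in Il34+/LacZ, or 2.41-fold lower and -0.75 after trend adjustment. Gabarapl2 read 170.7 in Il34LacZ/LacZ and 750.1 in Il34+/LacZ, or 4.10-fold lower and -1.42 after trend adjustment. With these probe sets all 3 GABARAP genes were therefore past 1.5-fold on both scales. Gabarap, however, stood at -0.55, short of that fold, when the trend was smoothed over a fraction of 0.5 of the probe sets. A second Gabarapl2 probe set, described below, read below the floor in Il34LacZ/LacZ. With that reading set to the floor it was not past 1.5-fold as deposited.

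Map1lc3a was the single autophagy gene at least 1.5-fold higher as deposited. It read 304.3 in Il34LacZ/LacZ and 190.8 in Il34+/LacZ, a difference of 0.63, or 1.55-fold (1.18 after trend adjustment). By the adjusted value 2.39% of all genes lay as high or higher. Map1lc3b read 376.5 in Il34LacZ/LacZ and 453.1 in Il34+/LacZ, a difference of -0.26 (0.36 after trend adjustment). With the mean of all probe sets of a gene used instead, Map1lc3b differed by -1.02, near the -1.12 of Gabarap, and Gabarapl2 by -1.39. The difference between the LC3 and GABARAP genes could not be tested with 1 array per genotype, and the genes were grouped by subfamily after their values were seen.

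Of the genes above, 4 had 2 probe sets each, and 3 of these 4 had 1 probe set whose number places it among genes of another chromosome. Probe set numbers of this array largely follow the genome: 20947 single-symbol probe sets had at least 5 of their 10 nearest numbers on the chromosome of their gene, and 606 did not. For Atg4a, on chromosome X, all 10 neighbours of the probe set used above belong to genes of chromosome 3, whereas all 10 neighbours of the second one belong to chromosome X. For Gabarapl2, on chromosome 8, the neighbours of the probe set used above lie on chromosome 5. The Gabarapl2 probe set with neighbours on chromosome 8 read 39.9 in Il34LacZ/LacZ, below the floor, and 77.8 in Il34+/LacZ. Its difference was -0.75 with the readings as they stand. For Map1lc3b, also on chromosome 8, the probe set used above has its neighbours there, and the second one, among genes of chromosome 14, read 19.8 in Il34LacZ/LacZ and 107.8 in Il34+/LacZ, a difference of -1.79. The 2 probe sets of Atg2b both lie among genes of chromosome 12 and differed by -0.53 and -0.11. What transcript these displaced probe sets read is not known here. A further count used the probe set near genes of its own chromosome for every gene. Then 17 of 35 autophagy genes read at least 1.5-fold lower as deposited, beside 28.1% of all genes. The median of the autophagy genes was -0.63, against -0.16 over all genes.

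**Figure D4:**
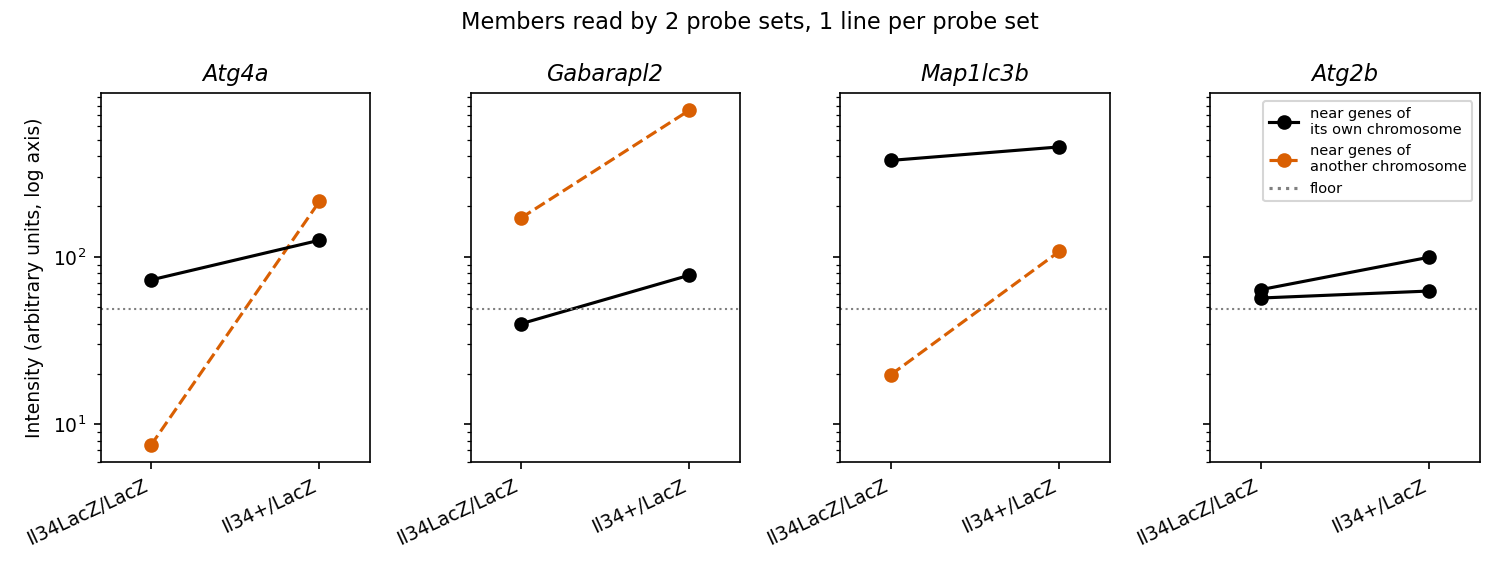
Intensity (log axis, arbitrary units) in Il34LacZ/LacZ and Il34+/LacZ for the 4 autophagy genes read by 2 probe sets, 1 line per probe set; black lines are probe sets near genes of the gene's own chromosome, dashed orange lines those near genes of another, and the dotted line is the floor. The dashed lines are steeper than the black ones for Atg4a, Gabarapl2 and Map1lc3b.

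The cargo receptors, apart from Nbr1, lay close to the trend of their level. Sqstm1, the receptor p62, which is itself broken down by autophagy as a protein, read 1457.3 in Il34LacZ/LacZ and 2264.7 in Il34+/LacZ, or 1.55-fold lower but -0.12 after trend adjustment. Nbr1, a receptor of related build, read 84.6 in Il34LacZ/LacZ and 159.9 in Il34+/LacZ, or 1.75-fold lower and -0.57 after trend adjustment. Tax1bp1, a receptor for ubiquitin-marked cargo, read 389.7 in Il34LacZ/LacZ and 595.4 in Il34+/LacZ, or 1.51-fold lower but 0.03 after trend adjustment. Calcoco1 read 121.2 in Il34LacZ/LacZ and 173.7 in Il34+/LacZ, a difference of -0.47 (-0.11 after trend adjustment). None of the 4 was 1.5-fold apart after trend adjustment, beside 18.6% of all genes lower and 13.9% higher, which is too few genes to compare. Nbr1 passed that fold at -0.61 with a smoothing fraction of 0.5. Their median was -0.61 as deposited and -0.12 after trend adjustment.

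Regulators and partners of the pathway that are not among the 37 genes had a trend-adjusted median near that of all genes. Of 59 such genes 57 were measured and 54 reached the floor on at least 1 array, each of them on both arrays. As deposited 22 of the 54 were past 1.5-fold on the lower side, beside 28.2% of all genes, or 33.6% of those above the floor on both arrays. On the higher side 0 were, beside 9.36% of all genes, and the median of the 54 was -0.46. By trend-adjusted values 12 of the 54 were lower, beside 18.6% of all genes, and 6 were higher, beside 13.9%. The median was -0.07. The core genes had a median of -0.57 over 35 genes on that scale, but 4 of them reached the floor in Il34+/LacZ alone. Over the 31 core genes at or above the floor on both arrays, like the 54, the median was -0.48. The difference between these lists was not tested.

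The nutrient sensors upstream of the initiation complex were mixed. Of 13 genes of mTORC1, the kinase complex that restrains autophagy, and of AMPK, which promotes it, 5 were at least 1.5-fold lower after trend adjustment, beside 18.6% of all genes, and 1 higher, beside 13.9%. The AMPK subunit Prkab2 read 52.9 in Il34LacZ/LacZ and 165.4 in Il34+/LacZ, or 2.63-fold lower. Rheb, the GTPase that activates mTORC1, read 317.1 in Il34LacZ/LacZ and 849.2 in Il34+/LacZ, or 2.60-fold lower, and Tsc2, part of the complex that switches Rheb off, read 121.6 in Il34LacZ/LacZ and 303.2 in Il34+/LacZ, or 2.32-fold lower. An activator of mTORC1 and its inhibitor were thus both lower. Prkag2, a further AMPK subunit, was 1.68-fold lower. The AMPK catalytic subunit Prkaa1, named after its values were seen, read 229.9 in Il34LacZ/LacZ and 180.3 in Il34+/LacZ, a difference of 0.32 (0.82 after trend adjustment).

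Transcription factors of autophagy and lysosome genes did not stand apart after trend adjustment. Tfeb read 127.4 in Il34LacZ/LacZ and 214.8 in Il34+/LacZ, or 1.61-fold lower and -0.27 after trend adjustment, and Tfe3 read 127.9 in Il34LacZ/LacZ and 271.0 in Il34+/LacZ, or 1.99-fold lower and -0.53 after trend adjustment. Foxo3 differed by -0.55, a typical value for its level, and Foxo1 by 0.12 (0.42 after trend adjustment). None of the 4 was 1.5-fold apart on the second scale, beside 18.6% of all genes lower and 13.9% higher, which is too few genes to compare. Mitf and Tfec were below the floor on both arrays.

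Other core factors held 0 of 11 genes past 1.5-fold on the higher side as deposited, beside 9.36% of all genes, and 3 after trend adjustment, beside 13.9%. Atg101, the partner that stabilises ATG13, named after its values were seen, read 141.0 in Il34LacZ/LacZ and 111.7 in Il34+/LacZ, a difference of 0.30 (0.58 after trend adjustment), near the value of Atg13 itself. Wdr45, a further phosphoinositide-binding protein of the WIPI family, read 154.3 in Il34LacZ/LacZ and 97.6 in Il34+/LacZ, a difference of 0.58 (0.85 after trend adjustment). Tmem41b, a scramblase that works with VMP1, read 66.3 in Il34LacZ/LacZ and 189.2 in Il34+/LacZ, or 2.49-fold lower. That Tmem41b probe set lies among genes of chromosome 9 rather than 7, and the other one read 129.3 in Il34LacZ/LacZ and 117.2 in Il34+/LacZ, a difference of 0.13. Ei24 was 1.64-fold lower and Epg5, a tether for fusion with lysosomes, 1.48-fold lower. Of the 11 genes 1 was lower by 1.5-fold after trend adjustment, beside 18.6% of all genes. The 3 higher ones on that scale were Wdr45 and, named after their values were seen, Nrbf2 and Sh3glb1.

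Among receptors of selective autophagy, Fundc1, a receptor on mitochondria, read 65.1 in Il34LacZ/LacZ and 223.2 in Il34+/LacZ, or 2.95-fold lower and -1.29 after trend adjustment. Tollip, an adaptor for ubiquitin-marked cargo, was 2.43-fold lower, the mitochondrial receptor Bcl2l13 2.23-fold lower and Wdfy3, a scaffold for aggregates, 1.98-fold lower. Of the 11 genes 3 lay past 1.5-fold on the lower side after trend adjustment, beside 18.6% of all genes, and 1 on the higher side, beside 13.9%. Their median was -0.07.

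Fusion of autophagosomes with lysosomes showed a median of -0.02 over 15 genes after trend adjustment. Of these 3 were at least 1.5-fold lower, beside 18.6% of all genes, and 1 was higher, beside 13.9%, so the lower share was near that of all genes. The tethering subunits Vps11 and Vps39 were 2.45-fold and 2.32-fold lower, and the SNARE gene Vamp7 2.32-fold lower. Lamp1, a major membrane protein of lysosomes, read 536.0 in Il34LacZ/LacZ and 919.0 in Il34+/LacZ, a difference of -0.76 (-0.15 after trend adjustment). Stx17, the SNARE of the autophagosome, named after its values were seen, read 143.5 in Il34LacZ/LacZ and 189.3 in Il34+/LacZ, a difference of -0.36 (0.05 after trend adjustment).

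**Figure D5:**
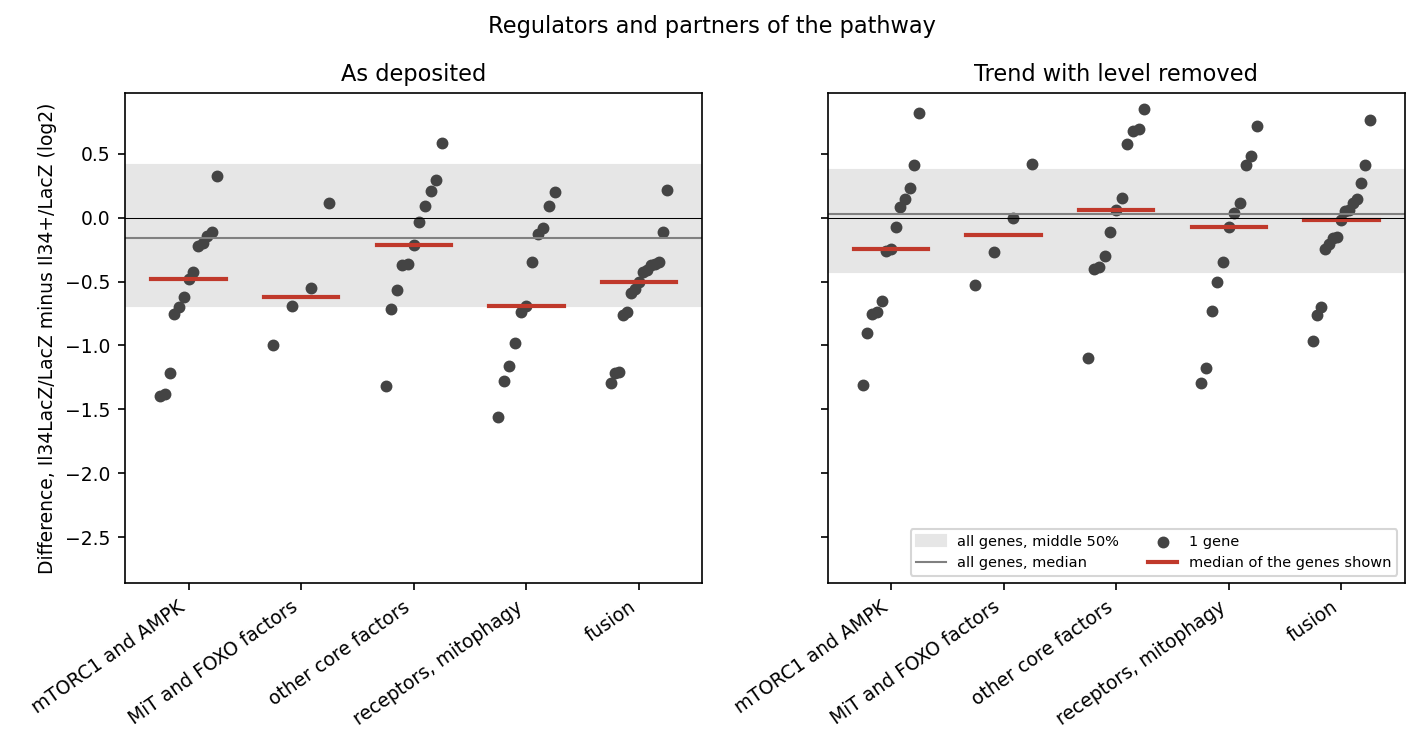
Difference between Il34LacZ/LacZ and Il34+/LacZ (log2) for regulators and partners of autophagy at or above the floor, by list, as deposited (left) and with the trend with level removed (right); red bars are medians and the grey band is the middle 50% of all genes. After trend adjustment each list's median lies inside the grey band.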

How the data were processed

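RNA of sorted Langerhans cells was measured on 2 one-colour Affymetrix mouse gene arrays, from 2 ng of total RNA per sample per the labels' protocols. The deposited table holds processed intensity values for each array, linear in scale as judged from their range. No source used here gives the authors' background removal, summarisation or scaling between arrays, and detection calls and scanner files were not used here.

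Of 34760 probe sets, 21640 had 1 gene symbol in the platform annotation, 1321 several and 11799 none. RefSeq (GRCm38.p6) gave a chromosome for 21553 of the 21640. Each gene was represented by its probe set of highest mean over both arrays. Intensities were transformed as log2(intensity + 16), and a loess curve (fraction 0.3) of difference against mean level, fitted to single-symbol probe sets, was subtracted for trend adjustment. A gene counted as lower or higher past 1.5-fold, that is 0.58 on the log2 scale. All members were named. Of each other list up to 4 genes with the largest difference were named. The members and lists were chosen with earlier results of these data known. With 1 array per genotype no test was made, and the number of arrays limits the precision. The scripts were tested on simulated data. Alternatives changed scaling, pseudocount, probe set rule and floor. Python 3.11.15, numpy 2.4.6, pandas 2.3.3 and statsmodels 0.14.6 were used.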

Additional observations from a re-analysis of the deposited data

How the results depend on the processing

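No paired analysis was possible because each genotype has 1 array. No library could be left out for the same reason. In each of 10 alternative settings the median of the autophagy genes stayed negative, between -0.81 and -0.44, and their share at least 1.5-fold lower, between 37.1% and 65.7%, stayed above that of all genes, between 16.7% and 36.2%. The own-locus probe set rule was chosen after seeing the data. After trend adjustment (smoothing fraction 0.3, then 0.5) 17 and 15 autophagy genes were lower past 1.5-fold and 2 and 2 higher. All genes gave 2386 lower and 1784 higher at 0.3, and 2420 lower and 1819 higher at 0.5, with medians of 0.028 and 0.035. The medians of the steps were then -0.64 and -0.68 for the lipid kinase complex, -0.33 and -0.32 for conjugation, -0.62 and -0.55 for the ATG8 family, -0.12 and -0.10 for receptors, and -0.069 and -0.10 for the other pathway genes. Tax1bp1 turned to 0.030 and 0.015. Higher genes made up 24.9% of all calls as deposited, 42.8% after trend adjustment and 45.7% after quantile normalization, but 12.9% with each array centred, 14.4% with pseudocount 64 and 9.61% with the higher floor. Between the smoothing fractions, Atg2b, Atg14 and Gabarap were past 1.5-fold at 0.3 alone, and Nbr1 at 0.5 alone. Centring each array on its median gave -0.78 for the autophagy genes with 0 higher, -0.60 for the other pathway genes, and -0.31 for all genes with 675 higher. Quantile normalization gave -0.44 for the autophagy genes with 2 higher, 2150 lower and 1812 higher of all genes with a median of 0.052, -0.30 for conjugation, -0.70 for the ATG8 family, -0.18 for receptors and -0.15 for the other pathway genes. Pseudocount 64 gave 0 autophagy genes higher and 458 of all genes higher. Without a floor 2445 of all genes were higher, with a median of 0.089. With the floor at the 75th percentile, an intensity of 126.9, fewer genes were counted: the median was -0.81 over 25 autophagy genes and -0.54 over all genes, with 2389 lower and 254 higher. Several of the 25, among them Pik3c3, Becn1, Wipi2 and Atg16l1, reached this higher floor in Il34+/LacZ alone, so they had to read lower. None reached it in Il34LacZ/LacZ alone, so the -0.81 is in part fixed by the choice of floor. With probe sets at the own locus the ATG8 median was -0.75, Atg4a differed by -0.67 and Gabarapl2 by -0.75, since another probe set stood for them. The mean of all probe sets moved Atg4a to -1.98, Gabarapl2 to -1.39 and Map1lc3b to -1.02. With readings below the floor used as they stand, 12 autophagy genes had a difference past 1.5-fold lower in each setting computed for them. These were Atg16l1, Atg2a, Atg4a, Atg4c, Atg9a, Becn1, Gabarapl1, Gabarapl2, Pik3c3, Pik3r4, Uvrag and Wipi2. Of these, Atg4a and Atg4c were below the floor in Il34LacZ/LacZ on their probe sets of highest mean. With its reading set to the floor, Atg4c was at least 1.36-fold lower as deposited and was not counted as past 1.5-fold. With probe sets at the own locus, Gabarapl2 read 39.9 in Il34LacZ/LacZ, below the floor, and Atg4a read 72.9 there, above it. With that Gabarapl2 reading set to the floor, Gabarapl2 was not past 1.5-fold lower in that setting. Atg13, Atg4d and Map1lc3a had a positive difference each time. That of Atg4d never passed 1.5-fold, and those of the other 2 did so in some settings. Other causes of these shifts were not tested.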

Other observations

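Over the whole array, 606 single-symbol probe sets lay among probe sets of another chromosome than their gene, by the count of at least 5 of the 10 nearest numbers, and 20947 lay among genes of their own. At or above the floor, 522 of the first kind, called displaced here, had a median difference of -0.42, and 13282 of the second kind had -0.16, or -0.021 and 0.023 after trend adjustment. The trend-adjusted differences had an SD of 0.78 for the displaced ones and 0.65 for the others. Among the regulators and partners, Nrbf2 had a displaced probe set that read 71.4 in Il34LacZ/LacZ and 162.2 in Il34+/LacZ, while its probe set among genes of chromosome 10 read 210.5 in Il34LacZ/LacZ and 179.4 in Il34+/LacZ. Ncoa4 had a displaced one that read 223.3 in Il34LacZ/LacZ and 82.8 in Il34+/LacZ, while that among genes of chromosome 14 read 161.4 in Il34LacZ/LacZ and 209.1 in Il34+/LacZ. These counts were made after the values of Atg4a and Gabarapl2 were seen.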
